A study of Xenopus laevis with 6 samples.

Results

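The genes described here are aldh1a1.L, aldh1a1.S, tgm2.L, tgm2.S and cyp26a1.L of Xenopus laevis, the African clawed frog. They encode enzymes that make and break down retinoic acid, and transglutaminase 2. All probe sets that the platform's gene table maps to these 5 symbols were taken, which gave 5 probe sets, 1 for each gene, among the 7531 gene symbols on the array. The genes were picked because of their own difference between bhh-treated and untreated explants or that of their partner copy, so their values in this comparison are a description and carry no test. Many X. laevis genes exist as 2 copies, a legacy of an old doubling of its genome, and the copies are told apart by the endings .L and .S.

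RNA came from pronephric explants, small blocks of embryonic flank around the kidney rudiment, about 70 × 100 × 70 µm in size, cut from both sides of stage 24 embryos. One group of 3 samples was treated with bhh, banded hedgehog, a secreted hedgehog protein whose gene is now named ihh. The other 3 samples were untreated, and no mock-treated explants are among the samples. Each sample pooled 300 explants and was hybridised to its own Affymetrix array. The labels give no strain or genotype, do not say how bhh was supplied, and do not say whether the pools came from separate batches of embryos, so p-values measure the spread between pools. The gene of the ligand, ihh.S, had signals of 3121, 2957 and 2824 in treated samples 1, 2 and 3, against 36.0, 14.3 and 17.8 in untreated samples 1, 2 and 3.

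Retinoic acid is made from vitamin A in successive oxidations. Retinol dehydrogenases such as rdh10 give retinaldehyde, retinaldehyde dehydrogenases of the aldh1a family turn it into retinoic acid, and cyp26 enzymes break it down. The acid acts through nuclear receptors of the rar and rxr families, and it is needed in frog embryos to set up the pronephros. Transglutaminase 2 cross-links proteins in and around cells, and in mammalian cells its gene is a known target of retinoic acid.

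Of the 5 genes, 3 had lower signals in every bhh-treated sample than in any untreated sample, namely aldh1a1.L, tgm2.L and tgm2.S. The signal of cyp26a1.L was higher in every treated sample, and the groups overlapped for aldh1a1.S. Non-overlapping groups were found for 18.3% of the 11618 probe sets bright enough to be kept, 9.01% lower and 9.3% higher with treatment. Since the genes were chosen for this difference, nothing is read from their count. All 5 passed the filter on dim probe sets. Their median log2 fold change was -1.05, beside 0.00 over all 11618 probe sets. As the arrays read whole explants, fewer cells of a type and less RNA per cell cannot be told apart.

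The gene aldh1a1.L encodes an aldehyde dehydrogenase that can oxidise retinaldehyde to retinoic acid. Its signals were 29.4, 49.9 and 44.4 in treated samples 1, 2 and 3, against 121.2, 147.7 and 142.9 in untreated samples 1, 2 and 3. The highest treated sample thus lay far below the lowest untreated one. The means were 41.2 ± 10.6 in treated and 137 ± 14.1 in untreated explants (SD, n = 3 each), a 3.40-fold lower level with treatment (log2 fold change -1.77 ± 0.26, SE). Among the 11618 probe sets, 13 had a log2 fold change this low or lower, itself included. The treated signals were near the limit of measurement: 1 of the 3 lay below a control level of 37.6, taken as the 95th percentile of signals from 44 control probe sets for bacterial and artificial tag sequences.

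The other copy, aldh1a1.S, had signals of 41.3, 81.7 and 68.6 in treated samples 1, 2 and 3, against 59.3, 96.0 and 56.0 in untreated samples 1, 2 and 3. The groups overlapped, and sample 2 was the highest of each group. The means were 63.9 ± 20.6 in treated and 70.4 ± 22.2 in untreated explants (SD, n = 3 each), which gave a log2 fold change of -0.15 ± 0.32 (SE). Between samples of the same number, treated minus untreated, the log2 difference was -0.52, -0.23 and 0.29 for aldh1a1.S and -2.04, -1.57 and -1.69 for aldh1a1.L. The direction of aldh1a1.S was thus not the same in all 3 numbers, and its sign turned without treated sample 1 (0.13) or untreated sample 2 (0.09).

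Both copies of tgm2 were lower in the treated explants. For tgm2.L the signals were 393.1, 332.0 and 370.7 in treated samples 1, 2 and 3, against 783.8, 755.1 and 721.2 in untreated samples 1, 2 and 3. The groups were wide apart, with little spread within each. Its means were 365 ± 30.9 in treated and 753 ± 31.3 in untreated explants (SD, n = 3 each), 2.07-fold lower with treatment (log2 fold change -1.05 ± 0.14, SE). For tgm2.S the signals were 350.8, 274.3 and 311.5 in treated samples 1, 2 and 3, against 730.8, 721.9 and 796.1 in untreated samples 1, 2 and 3. Again no treated sample reached an untreated one. The means of tgm2.S were 312 ± 38.3 in treated and 749.6 ± 40.5 in untreated explants (SD, n = 3 each), 2.41-fold lower with treatment (log2 fold change -1.27 ± 0.14, SE). By same-numbered samples, the log2 difference lay between -1.19 and -0.96 for tgm2.L and between -1.40 and -1.06 for tgm2.S. As the groups did not overlap, any pairing of samples gives a drop, so the direction by number adds nothing.

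The enzyme encoded by cyp26a1.L hydroxylates retinoic acid and thereby removes it, and in vertebrates its gene is itself turned on by retinoic acid. Its signals were 1032.2, 1209.8 and 1167.7 in treated samples 1, 2 and 3, against 809.9, 834.7 and 790.6 in untreated samples 1, 2 and 3. Every treated sample was above every untreated one, but the step was smaller than those of aldh1a1.L and tgm2. The means were 1137 ± 92.8 in treated and 812 ± 22.1 in untreated explants (SD, n = 3 each), 1.40-fold higher with treatment (log2 fold change 0.48 ± 0.12, SE). A log2 fold change this high or higher was found for 662 of the 11618 probe sets.

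**Figure D1:**
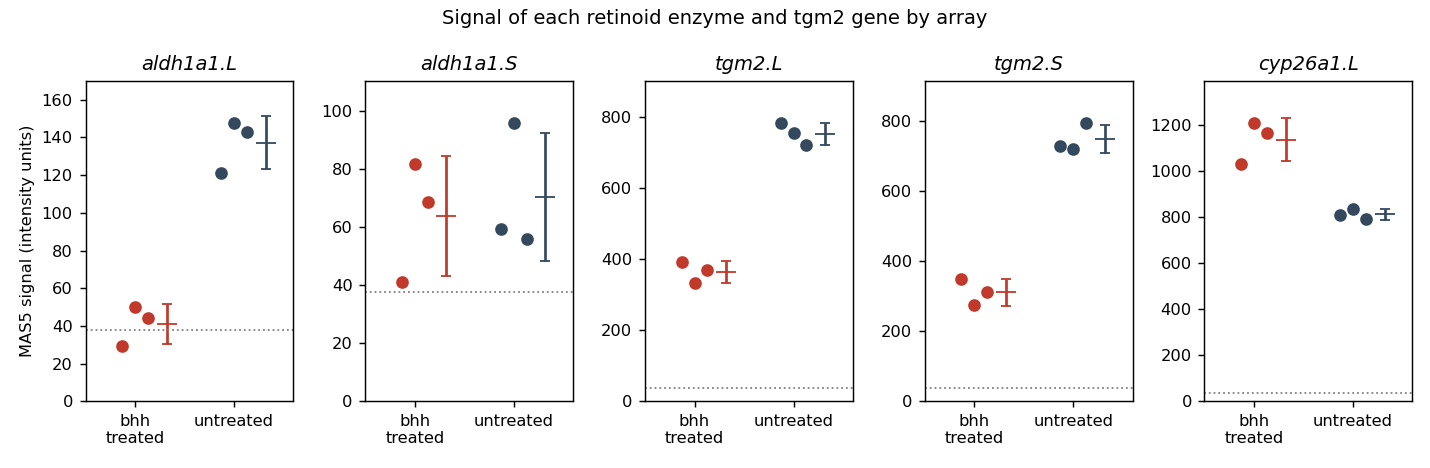
Signal (MAS5 intensity units, linear axes from 0) of aldh1a1.L, aldh1a1.S, tgm2.L, tgm2.S and cyp26a1.L on each array, with bhh-treated samples in red and untreated samples in dark blue. Points are the samples in the order of their numbers, crosses with bars are means ± SD (n = 3), and the dotted line is the control level of 37.6. The treated points of aldh1a1.L, tgm2.L and tgm2.S lie below all untreated points, those of cyp26a1.L above, and those of aldh1a1.S overlap.

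The copies of aldh1a1 and of tgm2 were then compared with each other, as the log2 signal of the .L probe set minus that of the .S probe set on the same array. The probe sets differ in brightness for reasons of their own, so only the change of this difference between groups was read. For aldh1a1 it was -0.49, -0.71 and -0.63 in treated samples 1, 2 and 3, against 1.03, 0.62 and 1.35 in untreated samples 1, 2 and 3. The values of the groups did not overlap, and the response of the .L copy was lower than that of the .S copy by a log2 difference of -1.61 ± 0.22 (SE). Untreated signals of aldh1a1.S, at 59.3, 96.0 and 56.0, were not far above the control level of 37.6. This limits how large a drop of the .S copy could be measured, and so the contrast between the copies. For tgm2 the .L minus .S values were 0.16, 0.28 and 0.25 in treated samples 1, 2 and 3, against 0.10, 0.06 and -0.14 in untreated samples 1, 2 and 3. These values did not overlap between groups either. Both copies of tgm2 moved down, with a difference in response of 0.22 ± 0.18 (SE). For cyp26a1 the .S copy, which was not among the chosen genes, was also measured, and it had signals of 444.1, 336.3 and 213.4 in treated samples 1, 2 and 3, against 330.3, 328.2 and 240.3 in untreated samples 1, 2 and 3. These groups overlapped (log2 fold change 0.10 ± 0.25, SE, limma adjusted p = 0.915), and the difference in response between the .L and .S copies was 0.39 ± 0.30 (SE).

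These differences can be read beside the 812 genes with both copies kept on the array. The median size of the difference in response between copies was 0.18 on the log2 scale, and its 95th percentile was 0.61. A difference as large as that of aldh1a1 was found for 3 pairs or 0.369%, itself included, while 41.6% of pairs differed as much as tgm2 and 16.6% as much as cyp26a1. With limma on the difference per array, 3 of 812 pairs (0.369%) passed at an adjusted p under 0.05, and 62 pairs (7.64%) had an unadjusted p under 0.05. The aldh1a1 pair is among the 3. As it was chosen on this contrast, nothing is read from that or from the share of pairs that differed as much. The shares given for tgm2 and cyp26a1, pairs that also hold chosen genes, are a description as well. Among the 9 pairs in which at least 1 copy fell by more than 1 on the log2 scale, tgm2 was the single pair in which both did. Its copies were chosen on this contrast and tgm2.L, at -1.05, lay close to the cut, so nothing is read from that either. The .L and .S copies of mdh2 (-0.87 and -1.06) and of ocm4.3 (-1.28 and -0.86) came near the same cut. Whether probes of one copy also bind RNA of the other was not tested.

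**Figure D2:**
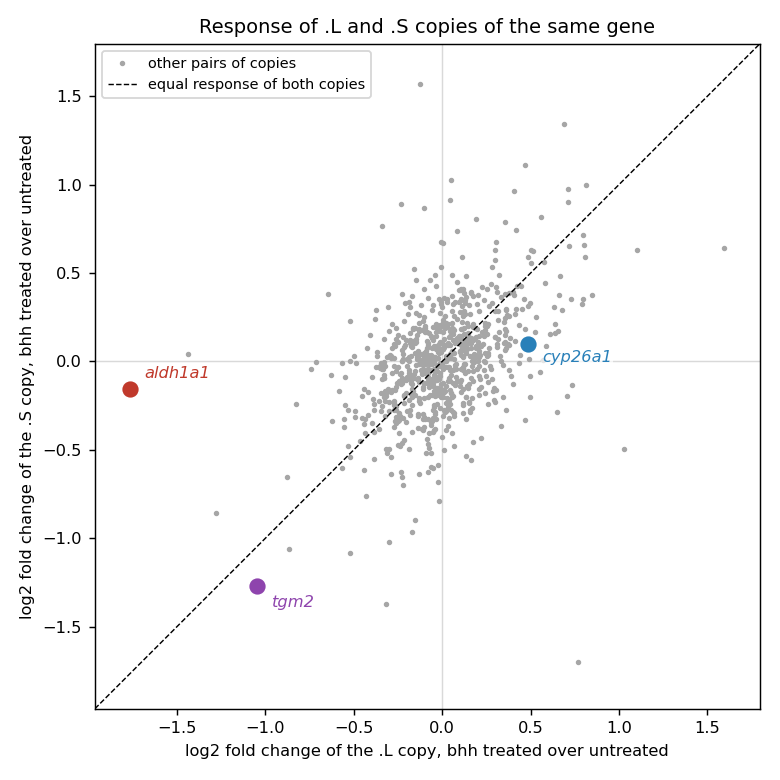
Log2 fold change (bhh treated over untreated) of the .L copy, on the x axis, against that of the .S copy, on the y axis, for the 812 genes with both copies kept. Grey points are the other pairs and the dashed line marks an equal response. The tgm2 pair lies near the line at -1.05 and -1.27, the aldh1a1 pair lies away from it at -1.77 and -0.15, and the cyp26a1 pair is at 0.48 and 0.10.

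The other genes of retinoid metabolism were measured in the same fit. None of the 11 tested genes for retinoid oxidation, reduction and breakdown passed the limma test. At an unadjusted p under 0.05, 0 were higher and 1 was lower. Over the whole array 1.38% of probe sets passed, 0.74% higher and 0.637% lower. At the unadjusted threshold the share was 12.2%, with 6.4% higher and 5.81% lower. The median log2 fold change of the 11 genes was 0.00, as over all probe sets. A further 5 of the 16 on the array were too dim to be tested.

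The genes with the smallest p-values in this group were rdh13.L, rpe65.S and rdh10.L. The signal of rdh13.L, a member of the retinol dehydrogenase family, was 64.4 ± 3.25 in treated and 104.5 ± 37.9 in untreated explants (SD, n = 3 each), and its log2 fold change was -0.64 ± 0.28 (SE, limma adjusted p = 0.386). rpe65.S, named for the retinoid isomerase of the visual cycle, had a log2 fold change of 0.33 ± 0.16 (SE, limma adjusted p = 0.463). The gene for the main retinol dehydrogenase of embryos, rdh10.L, had 2812 ± 274 in treated and 3196 ± 437 in untreated explants (SD, n = 3 each), or -0.18 ± 0.14 as a log2 fold change (SE, limma adjusted p = 0.667). None of the differences passed, and the samples of the 2 groups overlapped for rpe65.S and rdh10.L.

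The gene aldh1a2.L, for the retinaldehyde dehydrogenase that makes most retinoic acid in early embryos, was looked at after its values were seen. Its brighter probe set had 218.8, 382.5 and 289.5 in treated samples 1, 2 and 3, against 252.3, 371.2 and 377.8 in untreated samples 1, 2 and 3, so the groups overlapped (log2 fold change -0.18 ± 0.23, SE, limma adjusted p = 0.811). The dimmer probe set had 73.5, 74.1 and 95.6 in treated samples 1, 2 and 3, against 48.6, 34.4 and 50.4 in untreated samples 1, 2 and 3. Here the groups did not overlap, with a log2 fold change of 0.88 ± 0.26 (SE) that did not pass (limma adjusted p = 0.186, or 0.036 with array weights), and 1 untreated sample lay below the control level. The probe sets of aldh1a2.L thus differed in sign, and the gene has no single value.

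In the wider aldehyde dehydrogenase family, whose members oxidise many aldehydes, none of 11 tested genes other than aldh1a1 passed the limma test, and 0 did at an unadjusted p under 0.05. Of these, 8 had a log2 fold change below 0, between -0.38 and 0.27 over all 11, with a median of -0.18. Both copies of aldh16a1 had non-overlapping groups, lower with treatment, as had 9.01% of all probe sets. The signal of aldh16a1.L was 148 ± 17.5 in treated and 192 ± 8.38 in untreated explants (SD, n = 3 each; log2 fold change -0.38 ± 0.18, SE), and that of aldh16a1.S was 395 ± 40.5 in treated and 476 ± 38.7 in untreated explants (SD, n = 3 each; log2 fold change -0.27 ± 0.15, SE). aldh6a1.L, a mitochondrial enzyme of valine breakdown, had -0.30 ± 0.16 (SE). Their limma adjusted p-values were 0.423, 0.498 and 0.493.

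Genes for the binding and transport of retinoids could not be compared. All 6 on the array, rbp3.L, rbp4.L, rbp4.S, crabp2.L, rlbp1.L and ttr.L, were among the dimmest 25% of probe sets, and none was tested. Of the nuclear receptors and coregulators, 9 of 11 were tested and none passed the limma test. Without adjustment, 1 was higher and 0 lower at a p under 0.05, beside 6.4% and 5.81% of all probe sets. Their median log2 fold change was 0.02. The retinoic acid receptor gene rara.L had signals of 143.1, 198.2 and 234.2 in treated samples 1, 2 and 3, against 157.2, 115.6 and 117.0 in untreated samples 1, 2 and 3. Treated sample 1 lay within the untreated range, and the log2 fold change of 0.55 ± 0.23 (SE) did not pass (limma adjusted p = 0.371). For rarg.S, another receptor, the signal was 305 ± 4.51 in treated and 253 ± 16.4 in untreated explants (SD, n = 3 each), without overlap, but its log2 fold change of 0.27 ± 0.15 (SE) did not pass either (limma adjusted p = 0.515). rxrb.S, which encodes a partner of these receptors, had -0.22 ± 0.21 (SE, limma adjusted p = 0.727).

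Genes known from vertebrate embryos to respond to retinoic acid were examined next, 20 of 30 being bright enough. Of these, 1 fell, lhx1.L, a homeobox gene needed for the kidney rudiment, where 0.637% of all probe sets fell and 0.74% rose. None rose and 19 did not pass the limma test. In all, 17 had a log2 fold change above 0 and 3 below, with a median of 0.22, beside 0.00 over all probe sets. Copies of a gene were counted separately, and dhrs3.L, among those above 0, was at 0.00 when rounded. The share of all probe sets above 0 was not counted. Without adjustment, 5 had a higher and 1 a lower level at a p under 0.05, beside 6.4% and 5.81% of all probe sets. The list shares crabp2.L, cyp26a1.S, cyp26c1.S, dhrs3.L and rarg.S with the groups above, of which crabp2.L was too dim to be tested. The signal of lhx1.L was 18.8, 51.3 and 36.9 in treated samples 1, 2 and 3, against 374.0, 487.6 and 400.5 in untreated samples 1, 2 and 3. As the treated mean and 2 of the 3 treated samples were below the control level, only a bound is given, at least 10.02-fold lower with treated samples set to no less than 37.6 (limma adjusted p = 3.1e-04). The result for lhx1.L was already known from these data when the list was made, so its call is a description and nothing is read from it.

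The next members were both copies of meis3, a homeobox gene of the hindbrain and trunk. For meis3.S the signals were 695.5, 855.5 and 974.3 in treated samples 1, 2 and 3, against 450.3, 563.4 and 583.3 in untreated samples 1, 2 and 3, without overlap (log2 fold change 0.66 ± 0.16, SE, limma adjusted p = 0.104). For meis3.L they were 278.8, 364.2 and 322.8 in treated samples 1, 2 and 3, against 234.5, 140.6 and 187.3 in untreated samples 1, 2 and 3 (log2 fold change 0.80 ± 0.21, SE, limma adjusted p = 0.119). Both copies thus had higher signals in all treated samples, and neither passed. With the replicate number as a block, the count of this list was 5 higher and 1 lower, where 6.31% of all probe sets passed, 3.65% higher and 2.66% lower. The 5 were meis3.S (blocked limma adjusted p = 0.0020), hoxa2.L (0.0049), znf703.S (0.014), meis3.L (0.015) and znf703.L (0.039). The groups overlapped for hoxa2.L, znf703.S and znf703.L, which did not pass without the block (limma adjusted p = 0.306, 0.323 and 0.486). The other copy, hoxa2.S, did not pass with the block either (blocked limma adjusted p = 0.311). The labels do not say that the numbers pair samples, which limits the blocked fit. hoxa2.L is a hindbrain Hox gene, and znf703.S and znf703.L encode a zinc finger repressor.

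**Figure D3:**
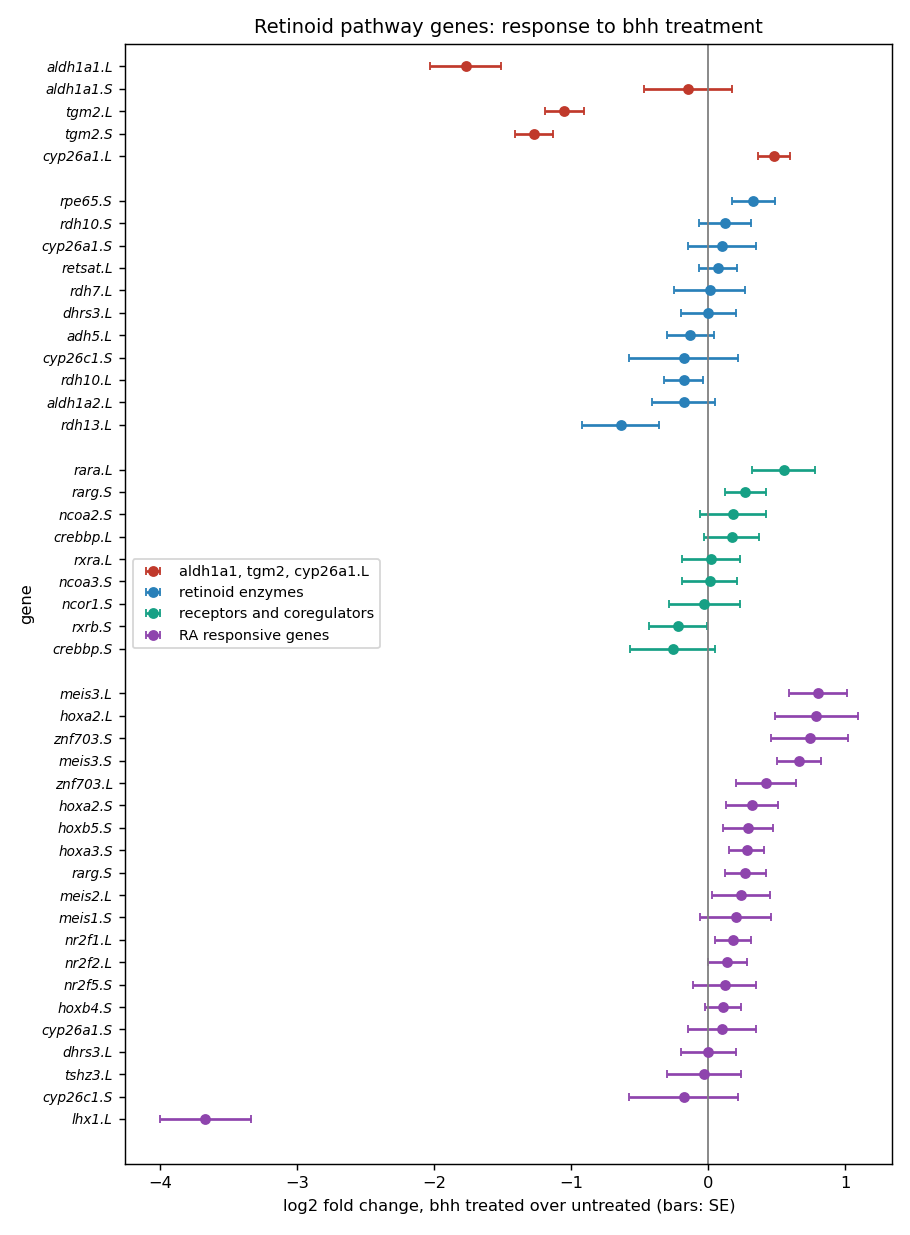
Log2 fold change (bhh treated over untreated, x axis; bars are SE from the limma fit) of the 5 chosen genes in red, then of retinoid enzymes, of receptors with their coregulators, and of retinoic acid responsive genes, each at its brightest probe set. Among the genes outside the chosen 5, lhx1.L is the single one that passed the test, and its result was known when the list was made. Its fitted value of -3.67 rests on treated signals near the control level. Of the 20 responsive genes, 17 lie above 0, with a median of 0.22 beside 0.00 over all probe sets, and 19 did not pass. Copies of a gene are counted separately.

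Of the listed transglutaminase symbols, tgm2 alone was matched on the array. Of 18 tested genes for matrix and surface proteins known to bind or be cross-linked by transglutaminase 2, 2 rose and none fell, against 0.74% of all probe sets higher and 0.637% lower. The remaining 16 did not pass the limma test. The median log2 fold change was 0.34, beside 0.00 over all probe sets, and 15 of 18 were above 0, with copies counted separately. Without adjustment 6 had a higher and 0 a lower level at a p under 0.05, beside 6.4% and 5.81% of all probe sets. This list, too, was made with earlier results of these data known. Its counts and calls, with or without the block, are thus a description, and nothing is read from them. The chosen tgm2 copies had lower signals, as given above.

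The first that rose was lrp1.S, an endocytic receptor known from mammalian cells to take up transglutaminase 2. Its brighter probe set had 367.6, 409.7 and 461.4 in treated samples 1, 2 and 3, against 188.4, 162.9 and 266.4 in untreated samples 1, 2 and 3. All treated samples were above the untreated ones, 2.04-fold on average (log2 fold change 1.03 ± 0.20, SE, limma adjusted p = 0.032). A dimmer probe set of lrp1.S rose as well, by a log2 fold change of 1.32 ± 0.24 (SE, limma adjusted p = 0.022), a call lost without sample 2 or 3 of either group (up to 0.139). The call at the brighter probe set was lost without treated sample 2 or 3, without untreated sample 1 or 2, and in a fit without a mean-variance trend (limma adjusted p up to 0.162).

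The second was ltbp1.S, which encodes a matrix protein that stores latent TGF-beta and is cross-linked by transglutaminases. Its signals were 184.2, 137.8 and 177.5 in treated samples 1, 2 and 3, against 83.3, 59.2 and 42.0 in untreated samples 1, 2 and 3. The groups did not overlap, and treated explants were 2.79-fold higher (log2 fold change 1.48 ± 0.27, SE, limma adjusted p = 0.024). This call was lost without any 1 sample other than untreated sample 1 (limma adjusted p up to 0.126).

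Other partners had smaller values. The signal of sdc4.L, a cell surface proteoglycan, was 950.1 ± 43.2 in treated and 675 ± 69.2 in untreated explants (SD, n = 3 each; log2 fold change 0.50 ± 0.13, SE, limma adjusted p = 0.125). The other 2 probe sets of sdc4.L overlapped between groups (log2 fold changes 0.36 and 0.37) and passed neither without nor with the replicate block (limma adjusted p = 0.535 and 0.693, blocked 0.338 and 0.124). The matrix glycoprotein gene fbln1.L had a log2 fold change of 0.44 ± 0.15 (SE, limma adjusted p = 0.262). For fn1.S, fibronectin, the brightest probe set had 0.45 ± 0.20 (SE, limma adjusted p = 0.388), and its other 3 probe sets had 0.39, 0.55 and 0.78, of which none passed without the block. With the replicate number as a block 5 of the 18 rose, where 3.65% of all probe sets did so. They were lrp1.S (blocked limma adjusted p = 4.5e-04), ltbp1.S (8.8e-04), fn1.S (0.0099), sdc4.L (0.018) and fbln1.L (0.039). The other 3 probe sets of fn1.S passed with the block as well (blocked limma adjusted p = 0.036, 0.0023 and 0.028).

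**Figure D4:**
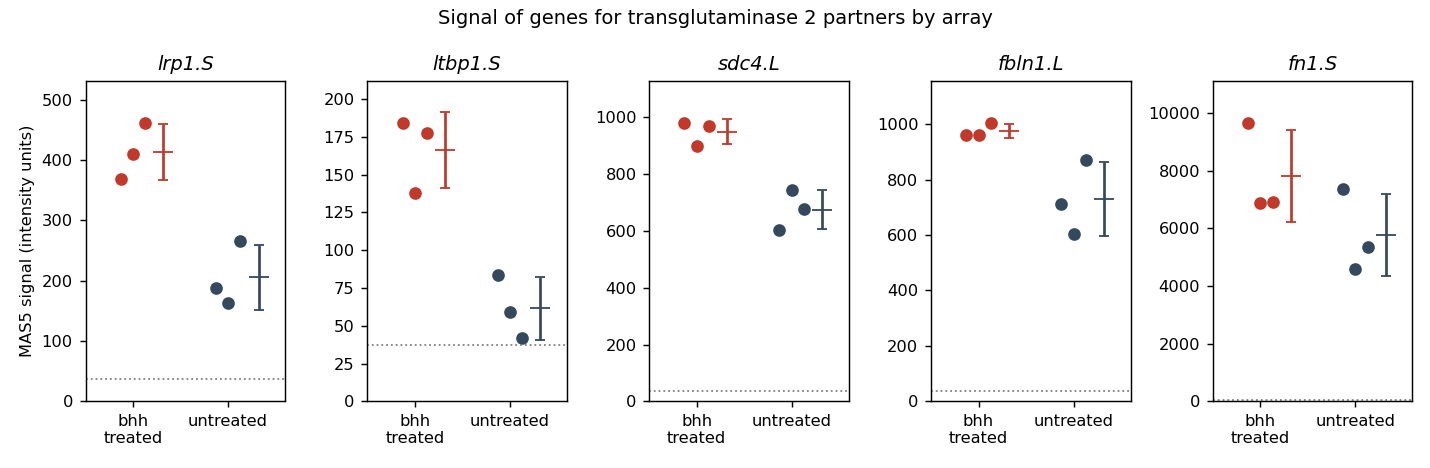
Signal (MAS5 intensity units, linear axes from 0) on each array of lrp1.S, ltbp1.S, sdc4.L, fbln1.L and fn1.S, whose products bind or are cross-linked by transglutaminase 2, with bhh-treated samples in red and untreated samples in dark blue. Points are samples in the order of their numbers, crosses with bars are means ± SD (n = 3), and the dotted line is the control level of 37.6. Shown is the brightest probe set of each gene that passed in the blocked fit. The groups are apart for all but fn1.S, but genes that passed were picked for this, so nothing is read from it. Of all 18 tested partners, 4 had groups apart and higher with treatment, beside 9.3% of all probe sets. Other probe sets of sdc4.L overlapped, and some of fn1.S did not. Without the block, lrp1.S and ltbp1.S passed the test.

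Genes with a pattern like that of each chosen gene were found by the root mean square difference between log2 signals centred on their own mean, over the 6 samples and 7458 other kept probe sets with 1 symbol. These patterns hold the difference between groups on which the genes were chosen. The likenesses, those between copies included, are therefore a description, and nothing more is read from them. Nearest to aldh1a1.L were dll1.L, which encodes a Notch ligand (0.166), a probe set of pax2.L, a transcription factor of the kidney rudiment (0.220), and rbpms2.L, an RNA-binding protein gene (0.261). The pax2.L probe set had 19.2, 41.2 and 32.6 in treated samples 1, 2 and 3, against 99.8, 85.2 and 81.3 in untreated samples 1, 2 and 3, so 2 of its 3 treated samples were below the control level. The brightest pax2.L probe set had 66.9, 79.7 and 54.7 in treated samples 1, 2 and 3, against 158.1, 90.4 and 63.5 in untreated samples 1, 2 and 3, with overlap (log2 fold change -0.55, limma adjusted p = 0.550). The partner copy aldh1a1.S was far from aldh1a1.L (0.835), and 1501 probe sets were nearer. aldh1a1.S was nearest to dnajb11.L (0.057), an endoplasmic reticulum chaperone gene, then to tmem208.L and ctse.L (0.111 each), which share its high sample 2 in each group.

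Nearest to tgm2.L were a probe set of the myosin heavy chain gene myh8.L (0.089), the creatine kinase gene ckb.L (0.089) and fli1.S, a transcription factor gene of blood vessels and blood (0.114). Nearest to tgm2.S were the same myh8.L probe set (0.078), traf4.S (0.092), a signalling adaptor gene, and fst.L (0.137), which encodes the activin antagonist follistatin. The copies of tgm2 differed from each other by 0.139, and 6 probe sets were nearer to tgm2.L. The myh8.L probe set had 2603, 2256 and 2281 in treated samples 1, 2 and 3, against 5410.4, 5289.7 and 5449 in untreated samples 1, 2 and 3. cyp26a1.L was nearest to mthfd2l.S (0.049), a folate enzyme gene, slc22a5.L (0.062), a carnitine transporter gene, and anxa7.S (0.067), an annexin gene.

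Markers of cell types moved with these genes in part. The summed signal of 11 somite and muscle genes ran between 34578 and 40797 in treated and between 53117 and 59630.4 in untreated samples, a log2 ratio of -0.56, and 2 of the 11 fell, where 0.637% of all probe sets did. These were myh8.L (log2 fold change -0.84 at its brightest probe set) and myf5.L (-1.34), while myod1.S, mef2d.L and myod1.L had values above 0 (0.79, 0.49 and 0.36) and did not pass. With the replicate block 6 of the 11 fell and 2 rose, myod1.S and mef2d.L, where 2.66% of all probe sets fell and 3.65% rose. The summed signal of 6 kidney rudiment genes ran between 719 and 975 in treated and between 1099.8 and 1169 in untreated samples (log2 ratio -0.42). Of these 6, lhx1.L fell and osr1.L rose, also with the replicate block, and none was below the control level in all samples. The lower kidney sum rests on lhx1.L, which gave 374.0, 487.6 and 400.5 in untreated but 18.8, 51.3 and 36.9 in treated samples. The log2 fold changes of osr1.L and gata3.S were above 0 (0.99 and 0.14), and those of pax2.L, pax8.L and wt1.L below 0 (-0.55, -0.33 and -0.61). Another pax2.L probe set had -1.58, with treated signals near the control level. The kidney genes thus differed in direction, and they were not tested as a set. Among the other cell types has1.S of the epidermis rose and fli1.S of blood and endothelium fell. With the replicate block these 5 cell types together held 6 genes that rose and 3 that fell, beside 3.65% and 2.66% of all probe sets. Tested were 7 genes of the epidermis, 6 of the endoderm, 7 of blood and endothelium, 5 of neural tissue and 2 of the notochord. The calls of lhx1.L and myh8.L held without any 1 sample (limma adjusted p up to 0.0075 and 0.041). Those of osr1.L, myf5.L, has1.S and fli1.S were each lost without treated sample 3 or untreated sample 2 (up to 0.214), those of osr1.L, has1.S and fli1.S also without treated sample 2, and those of osr1.L, has1.S and myf5.L also without untreated sample 3. The endoderm sum ran between 3649 and 4202 in treated and between 2925 and 3149 in untreated samples (log2 ratio 0.38). The neural tissue sum ran between 1768 and 1842 in treated and between 2113 and 2304 in untreated samples (log2 ratio -0.31). The groups were thus apart for these sums too, as for muscle and kidney. They overlapped for the sums of blood and endothelium, the epidermis and the notochord (log2 ratios 0.19, -0.25 and -0.01). Markers below the control level in all samples were hhex.L of the endoderm, hbg1.L and gata1.S of blood, ncam1.L of neural tissue and foxa4.L and not.L of the notochord. The part of these cell types in the values of aldh1a1, tgm2 and cyp26a1 was not tested.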

How the data were processed

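The 6 samples were measured on 1-colour Affymetrix arrays. The authors deposited 1 linear intensity per probe set and array. MAS5 is the tool the submitters' processing notes name for it. Since MAS5 corrects with mismatch probes and rescales every array, dim signals are noisy; detection calls were not used here. Median signals of the arrays were 148.7 to 169.2. With 3 arrays per group, their number limits the precision. No pair of arrays shared more than 0.25% identical values.

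Of 15611 probe sets, 120 controls were left out. Of the other 15491, 9304 carried 1 gene symbol, 195 several and 5992 none in the platform's table. By gene identifier, 9227 of the 9304 were matched to RefSeq names, which were then used (assembly Xenopus_laevis_v10.1, names only). Sequences were not used here.

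The test on log2 intensities was limma's (version 3.58.1, R 4.3.3, two-sided, eBayes with trend), after the dimmest 25% of probe sets were left out. P-values were adjusted over all 11618 by Benjamini-Hochberg, with a threshold of 0.05. Pairs of copies were fitted as differences per array without trend. The fits without a block were tried on simulated data with noise drawn independently for each array. The planted changes were larger than most in the lists. That trial does not bear on the blocked fit or on small changes. The brightest probe set stood for a gene in lists. Named in each list were all genes that passed and those with the smallest p, up to 3, and those that passed in the blocked fit; for each chosen gene, the 3 nearest patterns. The members and lists were chosen with earlier results of these data known, lhx1.L among them. Counts within the lists are therefore a description.

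An alternative fit took the replicate number as a block, which pairs same-numbered samples. Same-numbered arrays deviated together from their group means (correlations 0.407, 0.178 and 0.298 for numbers 1, 2 and 3). The blocked fit was run whatever these correlations were. The labels do not say what the numbers stand for. Treated 3 with untreated 2 gave 0.173 and treated 2 with untreated 3 gave 0.147, near the 0.178 of number 2. Numbers 2 and 3 were thus not clearly told apart, which limits the blocked fit. Other alternatives were quantile normalization, an offset of 16, other filters, array weights, no trend, any probe set of a gene, and each array left out.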

Additional observations from a re-analysis of the deposited data

How the results depend on the processing

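The log2 fold changes of tgm2.L, tgm2.S and cyp26a1.L moved by less than the spread between samples in all 13 alternatives, and with 1 array left out they ran from -1.10 to -0.98, from -1.36 to -1.18 and from 0.44 to 0.55. With the block, with another filter or without trend a log2 fold change cannot move by construction, so those fits do not bear on it. The log2 fold change of aldh1a1.L was -1.43 with an offset of 16, which shrinks dim signals by construction, and ran from -1.92 to -1.54 with 1 array left out. For aldh1a1.S the sign turned with array weights (0.01), without treated array 1 (0.13) and without untreated array 2 (0.09), in a range from -0.36 to 0.13. Both aldh1a1 copies fell out when the dimmest 50% were left out. In the blocked fit, which pairs arrays by replicate number, 733 probe sets passed over the whole array, 6 retinoic acid responsive genes and 5 transglutaminase partners. In the retinoid enzyme, receptor and aldehyde dehydrogenase lists the block called no gene at its brightest probe set; blocked counts of marker genes are given with the markers. With array weights 657 probe sets, 5 responsive genes and 1 receptor gene, rara.L, passed, and without trend 95 probe sets and 1 partner. With the dimmest 50% left out 0 responsive genes, 1 partner and 0 pairs of copies passed; lhx1.L, ltbp1.S and the aldh1a1 pair were not tested there. Without a filter 1 pair passed. With 1 array left out the counts ran from 60 to 187 probe sets, from 1 to 3 responsive genes, from 0 to 1 partner and from 0 to 3 pairs. For the other changes the cause was not tested. The counts of 0 for retinoid enzymes and the aldehyde dehydrogenase family, at the brightest probe set of each gene, stayed at 0 in all 14 alternatives (a dimmer aldh1a2.L probe set passed with array weights, 0.036), as did that for retinoid binding genes, which were tested only without the filter. Dim signals limit aldh1a1, lhx1.L and the retinoid binding genes.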
